A study of Dugesia japonica with 18 samples.

Results

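Synaptic vesicle and transmitter release proteins were followed in the planarian Dugesia japonica, a freshwater flatworm that regrows missing body regions from fragments. Members were assembled transcripts (unigenes) whose best SwissProt protein name held 1 of 14 terms such as Synaptotagmin, Syntaxin, Synapsin, unc-13 or Vesicular glutamate transporter, and which reached 1 CPM (counts scaled to a library total of 1e6) in at least 3 of 18 libraries. Of 267235 unigenes, 44 carried such a name and 42 reached that level, among 23616 unigenes tested in all. The 42 members held 31 different protein names and were placed in 12 roles. Pools of 10 to 20 animals were divided into a head, a trunk and a tail fragment and gave 1 mRNA library per fragment on day 0 and again on days 1, 3, 5, 7 and 10. The labels name no strain, genotype, age or treatment, and neither the meaning of day 0 nor the time since the cut is given in the sources used here. The 6 libraries of a fragment are its 6 days, so no fragment and day had a replicate pool, and all p-values rest on how fragments and days deviate from the fitted pattern.

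Neurons pass signals at synapses, where vesicles filled with transmitter fuse with the membrane when calcium enters. Vesicular transporters fill the vesicles, synapsin and Rab-3 hold and guide the vesicle pool, unc-13 primes docked vesicles, and the SNARE proteins syntaxin, SNAP-25 and synaptobrevin pull the membranes together. Complexin clamps the assembled SNAREs and synaptotagmin senses calcium and triggers fusion. In planarians the brain lies in the head, and paired nerve cords run from it through trunk and tail. A name match does not make every member a synaptic protein. Syntaxin-5, Syntaxin-6 and Rab-33B work at the Golgi and endosomes in other animals, Extended synaptotagmin-2 tethers the endoplasmic reticulum to the plasma membrane, and the Synaptotagmin-like proteins act on secretory granules with Rab-27. Rab-33B entered only because its name contains the letters "Rab-3". Synaptotagmin-3 was named after a plant protein, and 3 members (complexin, Extended synaptotagmin-2 and eat-4) match only when letter case is ignored. Names are best database hits in other species, and each unigene is given with its assembly number because names repeat. Synaptobrevin and unc-18 had no unigene of that name.

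Library totals ran from 17547716 to 21229980 counts. A single unigene without annotation took 41.2 to 49.6% of the counts in tail, 13 to 32.2% in head and 21.9 to 26.1% in trunk. The head library of day 1 stood apart at the low end of that range and had the highest scaling factor, 1.5, against 0.680 in the lowest library. Levels below are normalised CPM, in which the library total is first scaled by the trimmed mean of M-values (TMM). A count of 3, taken as the least detectable, equalled 0.106 to 0.249 normalised CPM, and 2 of the 756 member and library values lay under it. Levels of different unigenes are not compared, because transcript lengths were not used here.

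The members were more often called higher in head than lower. All plasma membrane syntaxin, SNAP-25, unc-13, synapsin, complexin, Choline O-acetyltransferase and Vesicular acetylcholine transporter members were called higher in head than tail and trunk, while the 13 synaptotagmins and synaptotagmin-like proteins were split in both directions. In head against tail, 21 of 42 members were higher in head and 10 lower (edgeR quasi-likelihood test, adjusted p under 0.05), while over all unigenes 18.9% were called higher in head and 19.1% lower. In head against trunk, 21 members were higher in head, against 17.8% of all unigenes, and 11 lower, against 21.7%. In trunk against tail, 6 members were higher in trunk and 9 lower, where 18.1% and 17.5% of all unigenes were. The median log2 fold change of the 42 members was 0.39 for head against tail and 0.25 for head against trunk, beside 0.02 and -0.00 over all unigenes, and -0.14 for trunk against tail, beside 0.00. In bulk libraries, fewer cells of a type and less RNA per cell cannot be told apart. The direction of small differences depended on the scaling, because library totals in place of TMM moved the median of all unigenes by 0.70, 0.30 and 0.39. With library totals 30 members were higher in head than tail and 2 lower, 24 higher in head than trunk and 7 lower, and 14 higher in trunk than tail and 6 lower. With totals that left out the most abundant unigene those splits were 24 and 6, 24 and 7, and 5 and 10. The shares of all unigenes called with other scalings, with single days left out or with DESeq2, a second test tool, are not given here or below. Library totals turned the sign of 6 of the 31 called members in head against tail (Rab-33B, Syntaxin-5, SNAP-29, Synaptotagmin-3, Synaptotagmin-like protein 5 and Vesicular glutamate transporter 3), all lower in head by TMM. Relative to the median of all unigenes, none of the 31, 32 and 15 called members changed sign under either scaling. A change of scaling moves all unigenes by nearly the same amount, so this follows by construction and tests nothing.

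Markers of neurons outside the release machinery were, like the members, more often called higher in head than lower. The list held 123 unigenes, among them Neuroendocrine convertase 2, an ELAV-like protein, neurexins, ion channels and transmitter receptors. Of these, 76 were higher in head than tail and 11 lower, with a median log2 fold change of 0.64, and 91 were higher in head than trunk and 9 lower. Their summed level ran from 1921 to 2285 normalised CPM over the 6 head libraries, from 1286 to 1430 in trunk and from 1498 to 1842 in tail. No marker was at 0 in all 6 libraries of a fragment, and 5 had a library at 0. With library totals the head against tail counts of the list were 110 and 3. In trunk against tail, 10 of the list were higher in trunk and 48 lower, with a median of -0.35, and 17 and 6 with library totals. The members there were 6 and 9, with a median of -0.14, and 14 and 6 with library totals. Their part in the members' differences was not tested. The summed level of the 42 members was 1697 to 1972 in head, 837 to 1069 in trunk and 994 to 1620 in tail.

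**Figure D1:**
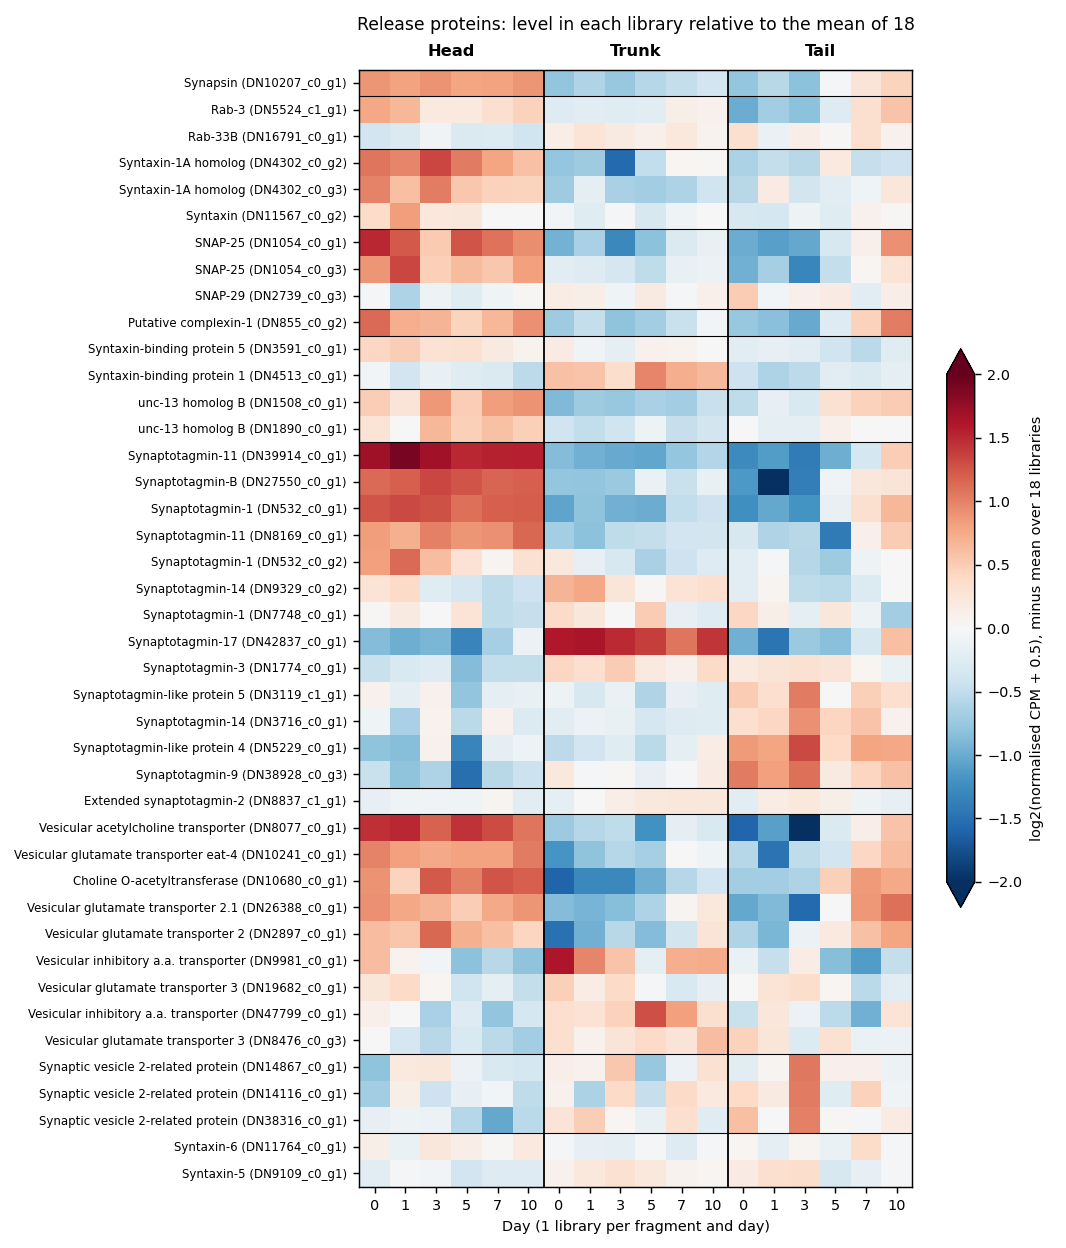
Level of each of the 42 members in each of the 18 libraries, as log2(normalised CPM + 0.5) minus the member's mean over all libraries; columns are days within head, trunk and tail, rows are grouped by role, and red is above and blue below the mean. Synapsin, SNAP-25, syntaxin-1A and the cholinergic members are red throughout head, and many of these turn redder in tail from day 5 on.

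**Figure D2:**
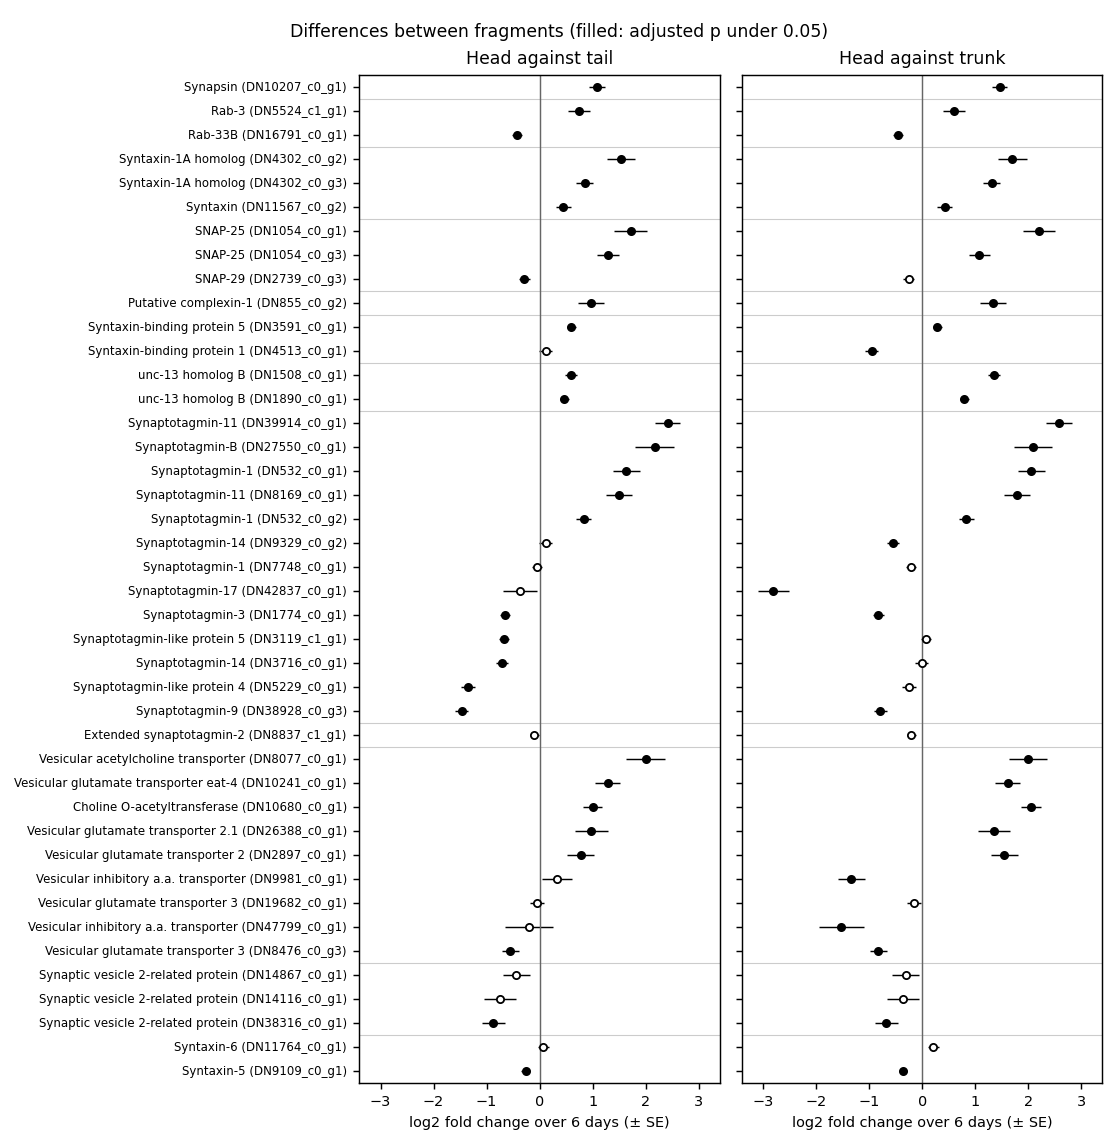
Log2 fold change of each member between fragments, averaged over 6 days, with its standard error; positive means higher in head, and filled points passed the adjusted p threshold of 0.05. In head against tail 21 filled points lie to the right and 10 to the left, and Synaptotagmin-17 is the leftmost point in head against trunk at -2.80.

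Synapsin (DN10207_c0_g1), which tethers vesicles to the cytoskeleton and is a general marker of nerve terminals, stood at 263, 250, 266, 248, 248 and 264 normalised CPM over the 6 days in head. In trunk it ran from 82.5 to 110 with a median of 94.5, and in tail it stood at 83.0, 97.5, 80.4, 140, 170 and 195. Every head library was above every trunk and tail library, and the tail libraries of days 5, 7 and 10 were above those of days 0, 1 and 3. The log2 fold change was 1.08 ± 0.15 (SE) in head against tail, adjusted p = 5.04e-05, and 1.46 ± 0.15 in head against trunk, adjusted p = 3.42e-06.

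Rab-3 (DN5524_c1_g1), the vesicle GTPase that docks vesicles at the active zone, held 38.6, 35.6, 25.8, 25.8, 28.2 and 31.0 normalised CPM in head, 18.8, 19.0, 18.9, 19.1, 24.4 and 23.9 in trunk and 11, 13.6, 12.5, 18.8, 28.0 and 33.7 in tail. Head lay above trunk in all 6 days without overlap, while head and tail overlapped through the late tail libraries. The log2 fold change was 0.73 ± 0.21 in head against tail (adjusted p = 0.0134) and 0.60 ± 0.20 in head against trunk (adjusted p = 0.0321). Both calls were lost without day 1 (adjusted p = 0.0651 and 0.0863) and without day 3, and the second also without day 0 or 5. Rab-33B (DN16791_c0_g1), the Golgi GTPase, went the other way, with 9.30 to 11.7 in head, 13 to 15.0 in trunk and 11.2 to 15.5 in tail, and a log2 fold change of -0.42 ± 0.10 in head against tail (adjusted p = 0.00253) that became 0.27 with library totals.

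All 3 plasma membrane syntaxins and both SNAP-25 unigenes were called higher in head than in tail and than in trunk. Syntaxin-1A homolog (DN4302_c0_g2), the neuronal syntaxin that anchors the fusion complex in the presynaptic membrane, ran from 5.73 to 9.96 normalised CPM in head, with a median of 7.83. It ran from 0.908 to 3.76 in trunk, with a median of 2.23, and from 2.16 to 4.25 in tail, with a median of 2.49. The head libraries did not overlap with either fragment, and the log2 fold change was 1.54 ± 0.27 against tail and 1.70 ± 0.27 against trunk. A second unigene of the same assembly component, DN4302_c0_g3, ran from 12 to 18 in head, 5.06 to 7.56 in trunk and 5.74 to 10.2 in tail, also without overlap of head with the others. A further syntaxin, DN11567_c0_g2, named after a sea slug protein, differed less, by 0.45 ± 0.14 against tail and 0.42 ± 0.14 against trunk. Its highest head value, 28.9, was the day 1 library, and without day 1 neither call held (adjusted p = 0.0802 and 0.0751), nor without day 0 or day 5.

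SNAP-25 (Synaptosomal-associated protein 25), the SNARE that supplies the complex with a pair of helices, was represented by a more and a less abundant unigene of 1 component. For DN1054_c0_g3 the 6 head values were 52.7, 73.0, 39.9, 44.2, 41.6 and 50.7 normalised CPM, the trunk values lay between 19.9 and 26.2, and the tail values were 14.4, 17.8, 11.2, 20.3, 29.4 and 34.4. All head libraries of this unigene were above all its tail and trunk libraries, with log2 fold changes of 1.29 ± 0.20 and 1.08 ± 0.20. For DN1054_c0_g1 the head values lay between 3.53 and 7.51, the trunk values between 0.655 and 2.04 and the tail values between 0.821 and 4.80. Its log2 fold change was 1.72 ± 0.31 against tail and 2.21 ± 0.30 against trunk. SNAP-29 (DN2739_c0_g3), a relative used on many internal membranes, was lower in head than in tail by only 0.29 on the log2 scale (-0.29 ± 0.11, adjusted p = 0.0434), with overlapping fragments. That call was lost without any 1 of days 0, 1, 3, 5 and 10 (adjusted p up to 0.144) and its value was 0.41 with library totals.

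Complexin, the clamp on assembled SNAREs, was present as Putative complexin-1 (DN855_c0_g2). It held 90.7, 67.8, 65.4, 55.8, 65.3 and 77.2 normalised CPM in head, 23.1 to 39.1 in trunk, and 23.9, 22.6, 20.1, 33.9, 56.7 and 83.5 in tail. Its day 10 tail library was above 5 of the 6 head libraries, and its early tail libraries were below all of them. The log2 fold change was 0.96 ± 0.25 against tail (adjusted p = 0.00883) and 1.34 ± 0.24 against trunk (adjusted p = 0.000911).

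The proteins that act on syntaxin did not share a direction. Syntaxin-binding protein 1 (DN4513_c0_g1), the Munc18 chaperone that fusion requires in other animals, was highest in trunk. It ran from 11.5 to 18.1 normalised CPM in trunk, 6.08 to 8.63 in head and 5.68 to 7.86 in tail, and trunk lay above both without overlap. It was lower in head than trunk by 0.95 on the log2 scale (-0.95 ± 0.12, adjusted p = 8.93e-06), and head against tail missed the threshold at 0.11 ± 0.12. Syntaxin-binding protein 5 (DN3591_c0_g1), tomosyn, which holds SNAREs back from vesicles, was higher in head, with 38.2 to 51.8 in head, 32.2 to 40.8 in trunk and 24.9 to 32.6 in tail. Its log2 fold change was 0.60 ± 0.08 against tail, and its calls of head against trunk (0.28 ± 0.08) and trunk against tail (0.32 ± 0.09) were lost without day 1 or 3 (adjusted p up to 0.0562) and without day 7 (adjusted p = 0.0534), respectively. The Golgi and endosome syntaxins differed little. Syntaxin-5 (DN9109_c0_g1) was lower in head than trunk (-0.36 ± 0.08, adjusted p = 0.00194) with no overlap, and lower than tail (-0.26 ± 0.08), a call lost without day 0, 3 or 10 that turned to 0.44 with library totals. Syntaxin-6 (DN11764_c0_g1), at 12.5 to 16.2 in head and 12.1 to 18 in tail, passed no test.

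Both unc-13 homolog B unigenes, priming factors that open syntaxin for SNARE assembly, were higher in head. DN1508_c0_g1 held 71.6, 61.0, 92.9, 71.8, 90.6 and 95.4 normalised CPM in head, 27.3 to 37.2 in trunk, and 35.7, 45, 41.0, 62.9, 69.9 and 72.1 in tail. Head lay above trunk without overlap and overlapped with the late tail libraries. The log2 fold change was 0.59 ± 0.12 against tail, 1.35 ± 0.12 against trunk and -0.76 ± 0.12 in trunk against tail, with tail above trunk on each of 6 days. DN1890_c0_g1 ran from 74.9 to 117 in head, 52.6 to 68.8 in trunk and 64.8 to 79.9 in tail, with log2 fold changes of 0.47 ± 0.08 against tail and 0.79 ± 0.08 against trunk. Its trunk against tail value, -0.33 ± 0.08, became 0.07 with library totals.

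The 13 synaptotagmins and synaptotagmin-like proteins went in both directions. Against tail, 5 were higher and 5 lower in head, and against trunk 5 were higher and 4 lower. Synaptotagmin-1 (DN532_c0_g1), the calcium sensor of fast release, held 238, 247, 239, 212, 228 and 230 normalised CPM in head, 47.2, 56.3, 50.6, 49.3, 70.5 and 74.2 in trunk and 42.2, 48.3, 42.9, 88.9, 124 and 157 in tail. Every head library was above every other library, and its log2 fold change was 1.63 ± 0.25 against tail (adjusted p = 0.000307) and 2.06 ± 0.25 against trunk (adjusted p = 4.66e-05). Synaptotagmin-11 (DN39914_c0_g1), a form that does not bind calcium in mammals and acts in vesicle retrieval, ran from 115 to 149 in head with a median of 124, from 19.1 to 26.4 in trunk, and stood at 16.1, 18.1, 14.8, 20.1, 31.1 and 56.0 in tail. Its log2 fold change of 2.41 ± 0.24 against tail (adjusted p = 8.15e-06) was the largest of the 42 members, and that against trunk was 2.58 ± 0.24. Synaptotagmin-B (DN27550_c0_g1), named after an electric ray protein, stood between 5.59 and 6.48 in head, 1.11 and 2.02 in trunk, and 0.126 and 2.81 in tail, where the day 1 library was under 3 counts. Its log2 fold change was 2.17 ± 0.37 against tail. A second Synaptotagmin-11 (DN8169_c0_g1) and a second unigene of the Synaptotagmin-1 component (DN532_c0_g2) were higher in head than tail as well, by 1.49 ± 0.25 and 0.83 ± 0.14.

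Other synaptotagmins were lower in head. Synaptotagmin-9 (DN38928_c0_g3), a calcium sensor in mammals whose unigene also matches the scaffold liprin-beta-2 in another protein database, held 4.34 to 9.65 normalised CPM in head, 11.7 to 15.4 in trunk and 15.1 to 28.8 in tail. Head did not overlap with either fragment, and the log2 fold change was -1.47 ± 0.13 against tail (adjusted p = 2.31e-07), the lowest of the 42 members. Synaptotagmin-like protein 4 (DN5229_c0_g1), granuphilin, which docks secretory granules through Rab-27, ran from 42.9 to 114 in head, 74.5 to 120 in trunk and 142 to 269 in tail. Tail lay above head and trunk without overlap, by -1.35 ± 0.13 and -1.11 ± 0.13 in head and trunk against tail. Synaptotagmin-like protein 5 (DN3119_c1_g1) and Synaptotagmin-14 (DN3716_c0_g1), a form without calcium binding, showed tail values of 13.1 to 27.2 and 17.3 to 31.3, above trunk without overlap, and log2 fold changes in head against tail of -0.67 ± 0.10 and -0.71 ± 0.12. With library totals the value for Synaptotagmin-like protein 5 was 0.03, and that for Synaptotagmin-14 was -0.02 and no longer called. For these tail-high unigenes the day 3 tail library held the highest of all 18 values, and the day 5 head library the lowest for all but Synaptotagmin-14. Synaptotagmin-3 (DN1774_c0_g1) was lower in head than in tail (-0.65 ± 0.10) and trunk (-0.82 ± 0.10), the first of which was 0.04 and not called with library totals.

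Synaptotagmin-17 (DN42837_c0_g1), an atypical form tied to trafficking at the Golgi and to neurite growth in mammals, was highest in trunk. It stood at 7.38, 7.56, 6.81, 6.27, 4.96 and 6.46 normalised CPM in trunk. In head it ran from 0.534 to 1.88 and in tail it was 0.831, 0.442, 1.04, 0.953, 1.57 and 3.43. Every trunk library was above every other library, and the log2 fold change was -2.80 ± 0.29 in head against trunk (adjusted p = 2.03e-06) and 2.43 ± 0.30 in trunk against tail (adjusted p = 1.83e-05). A second Synaptotagmin-14 (DN9329_c0_g2) was also higher in trunk, by 0.66 ± 0.12 over tail and with -0.55 ± 0.12 in head against trunk.

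Among the 9 unigenes that make or load transmitter, the cholinergic pair was high in head. Choline O-acetyltransferase (DN10680_c0_g1), which makes acetylcholine, held 338, 245, 422, 363, 431 and 415 normalised CPM in head, 58.7, 73.6, 73.1, 91.7, 121 and 138 in trunk, and 111, 111, 117, 250, 325 and 303 in tail. Head was above tail in each of 6 days, tail was above trunk in each of 6 days, and the late tail libraries reached the range of head. The log2 fold change was 1.0 ± 0.18 against tail (adjusted p = 0.000628), 2.06 ± 0.18 against trunk (adjusted p = 2.04e-06) and -1.06 ± 0.18 in trunk against tail. Vesicular acetylcholine transporter (DN8077_c0_g1), which loads acetylcholine into vesicles, held 39.8, 41.0, 32.6, 39.6, 35.9 and 30.4 in head, 5.86 to 12.3 in trunk and 4.41, 6.44, 2.65, 11.5, 15.6 and 21.2 in tail. All head libraries were above all others, by 2.0 ± 0.37 against tail and 1.99 ± 0.36 against trunk.

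Vesicular glutamate transporters load glutamate, the main fast excitatory transmitter in vertebrate brains. Of 5 such unigenes, 3 were called higher in head than in tail and in trunk. Vesicular glutamate transporter 2.1 (DN26388_c0_g1) held 37.6, 34.0, 32.0, 28.0, 33.6 and 36.6 normalised CPM in head, 10.1 to 22.8 in trunk, and 9.39, 10.5, 6.34, 19.5, 36.3 and 42.9 in tail. Its late tail libraries lay within or above the head range, and the call of 0.97 ± 0.31 against tail (adjusted p = 0.0270) was lost without any 1 of days 0, 1, 3 and 5. The unigene named after eat-4 (DN10241_c0_g1), the glutamate transporter of a nematode, ran from 7.25 to 8.94 in head, 1.52 to 4.03 in trunk and 1.14 to 6.55 in tail, with 1.28 ± 0.24 against tail and no overlap of head with either. Vesicular glutamate transporter 2 (DN2897_c0_g1) was higher in head than trunk (1.55 ± 0.26), and its calls against tail (0.77 ± 0.26) and in trunk against tail (-0.78 ± 0.27) were each lost without any 1 of 4 days (adjusted p up to 0.105 and 0.109). Vesicular glutamate transporter 3 (DN8476_c0_g3) was instead lower in head, at -0.55 ± 0.16 against tail, which was 0.15 with library totals, and -0.83 ± 0.16 against trunk. A second unigene of that name (DN19682_c0_g1) passed no edgeR test, while DESeq2 called it for a change over days averaged over the fragments. Both Vesicular inhibitory amino acid transporter unigenes, which load GABA and glycine, were highest in trunk. DN9981_c0_g1 ran from 1.09 to 5.11 in trunk, 0.534 to 2.29 in head and 0.341 to 1.52 in tail, and DN47799_c0_g1 from 1.01 to 2.54, 0.220 to 0.834 and 0.136 to 0.998. The log2 fold changes in head against trunk were -1.33 ± 0.26 and -1.52 ± 0.42, and those in trunk against tail 1.66 ± 0.28 and 1.33 ± 0.44, the last lost without day 5 or 7. DN47799_c0_g1 reached 1 CPM in 6 trunk, 2 head and 0 tail libraries and would not have been tested without trunk, so its higher values there, among the 11 and the 6 calls above, follow in part from the minimum level and support nothing. These were also the members nearest the minimum level, reaching 1 CPM in 9 and 8 libraries.

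The 3 Synaptic vesicle 2-related proteins, membrane carriers of vesicles with no settled substrate, were not higher in head. DN38316_c0_g1 ran from 1.01 to 2.36 normalised CPM in head, 2.10 to 3.80 in trunk and 2.52 to 5.70 in tail, and head lay below tail without overlap (-0.87 ± 0.22, adjusted p = 0.00472). Its call against trunk, -0.68 ± 0.22, was lost without day 7 (adjusted p = 0.103), and with library totals its value against tail was -0.17 and not called. DN14116_c0_g1 and DN14867_c0_g1 passed no edgeR test, with head against tail at -0.75 ± 0.30 and -0.44 ± 0.26, the first of which DESeq2 called (adjusted p = 0.0492). Each of the 3 had its highest tail value on day 3, at 5.70, 3.37 and 4.17. Extended synaptotagmin-2 (DN8837_c1_g1) ran from 58.8 to 71.3 in head, 60.4 to 81.0 in trunk and 59.4 to 79.8 in tail and passed no test. Its head against tail value of -0.10 ± 0.08 was 0.60 with library totals. Counting Syntaxin-6 and a Vesicular glutamate transporter 3, 5 of the 42 members were called in no comparison of fragments or days by edgeR, and 3 of those 5 in none by DESeq2 either.

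Judged by libraries without overlap, 12 members had all 6 head values above all 6 tail values, where 7.71% of all unigenes did, and 4 had them below, where 7.25% did. Head was wholly above trunk for 18 members, against 9.87% of all unigenes, and wholly below for 8, against 11.5%. Trunk was wholly above tail for 3 members, against 8.51%, and wholly below for 3, against 5.68%. The 8 with head below trunk and the 3 with trunk above tail include DN47799_c0_g1. That unigene passed the minimum level only through trunk, so its place in these counts supports nothing.

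Over days, calls came in tail. Here a slope is the change in log2 level for each doubling of (day + 1), fitted within a fragment. It was positive and past the threshold in tail for 14 of 42 members, where 3.68% of all unigenes were, and no member had a called negative slope there, where 1.73% of all unigenes did. DESeq2 called 15 members in tail, the 14 and the second SNAP-25 unigene. In head 0 members had a called slope, with 1.39% of all unigenes called, 8 members at an unadjusted p under 0.05, and 2 called by DESeq2, Synaptotagmin-14 (DN9329_c0_g2) and Vesicular inhibitory amino acid transporter (DN9981_c0_g1). In trunk 0 members were called, with 0.106% of all unigenes, 9 members at an unadjusted p under 0.05, and 2 called by DESeq2, Choline O-acetyltransferase and Vesicular glutamate transporter 2. The share of all unigenes at an unadjusted p under 0.05 was not counted, here or below. The 14 were Synapsin, Rab-3, complexin, SNAP-25 (DN1054_c0_g1), unc-13 (DN1508_c0_g1), Synaptotagmin-1 (DN532_c0_g1), Synaptotagmin-11 (DN39914_c0_g1), Synaptotagmin-B, Synaptotagmin-17, Choline O-acetyltransferase, Vesicular acetylcholine transporter, Vesicular glutamate transporters 2 and 2.1, and the eat-4 unigene. By role they were 5 of 9 transmitter loading and synthesis, 4 of 13 synaptotagmin, 1 of 3 synaptosomal-associated, 1 of 2 unc-13 and 1 of 2 Rab-3 members, with synapsin and complexin. No call fell on the 3 plasma membrane syntaxins, the 2 syntaxin-binding, 3 Synaptic vesicle 2-related and 2 endomembrane syntaxin members or Extended synaptotagmin-2. The more abundant SNAP-25 unigene (DN1054_c0_g3) missed the edgeR threshold at 0.34 ± 0.10 (adjusted p = 0.0531).

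The steepest called slopes in tail were 0.90 ± 0.20 for Synaptotagmin-B (adjusted p = 0.0100), 0.75 ± 0.17 for SNAP-25 DN1054_c0_g1 (adjusted p = 0.0103) and 0.68 ± 0.14 for Vesicular glutamate transporter 2.1 (adjusted p = 0.00805). Those with the smallest adjusted p were Synaptotagmin-1 at 0.56 ± 0.08 (adjusted p = 0.000437), Rab-3 at 0.46 ± 0.08 (adjusted p = 0.000790) and Synapsin at 0.36 ± 0.06 (adjusted p = 0.00137). The number of calls depended on single days. Without day 10, 5 of the 14 were called, namely Synapsin, Rab-3, Synaptotagmin-1, Choline O-acetyltransferase and unc-13 DN1508_c0_g1, and the number was 7 without day 1 and 9 without day 7. Synapsin, Rab-3, Synaptotagmin-1 and Choline O-acetyltransferase were called with any 1 day left out, with highest adjusted p of 0.0452, 0.0255, 0.0179 and 0.0256, and unc-13 was lost without day 0 (adjusted p = 0.0678).

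As a fold of day 0 in the same fragment, the 14 members had a median in tail of 1.06 on day 1, 0.992 on day 3, 1.82 on day 5, 2.53 on day 7 and 3.48 on day 10. On day 3 none of the 14 was at 1.5-fold, on day 5 there were 10, and on day 10 all 14 were between 2.02-fold and 5.25-fold. In head their median on day 10 was 0.970-fold, and in trunk it was 1.57-fold, from 0.876-fold to 4.42-fold, with 5 at 2-fold or more. The 14 were chosen by their tail slope, so these folds describe them and test nothing. The other 28 members had a median of 0.953-fold in tail on day 10. In tail relative to head of the same day, the 14 stood at a median of 27.4% on day 0, from 11.1 to 90.6%, and of 74.7% on day 10, from 47.4 to 182%. The other 28 stood at 95.2% and 123%.

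**Figure D3:**
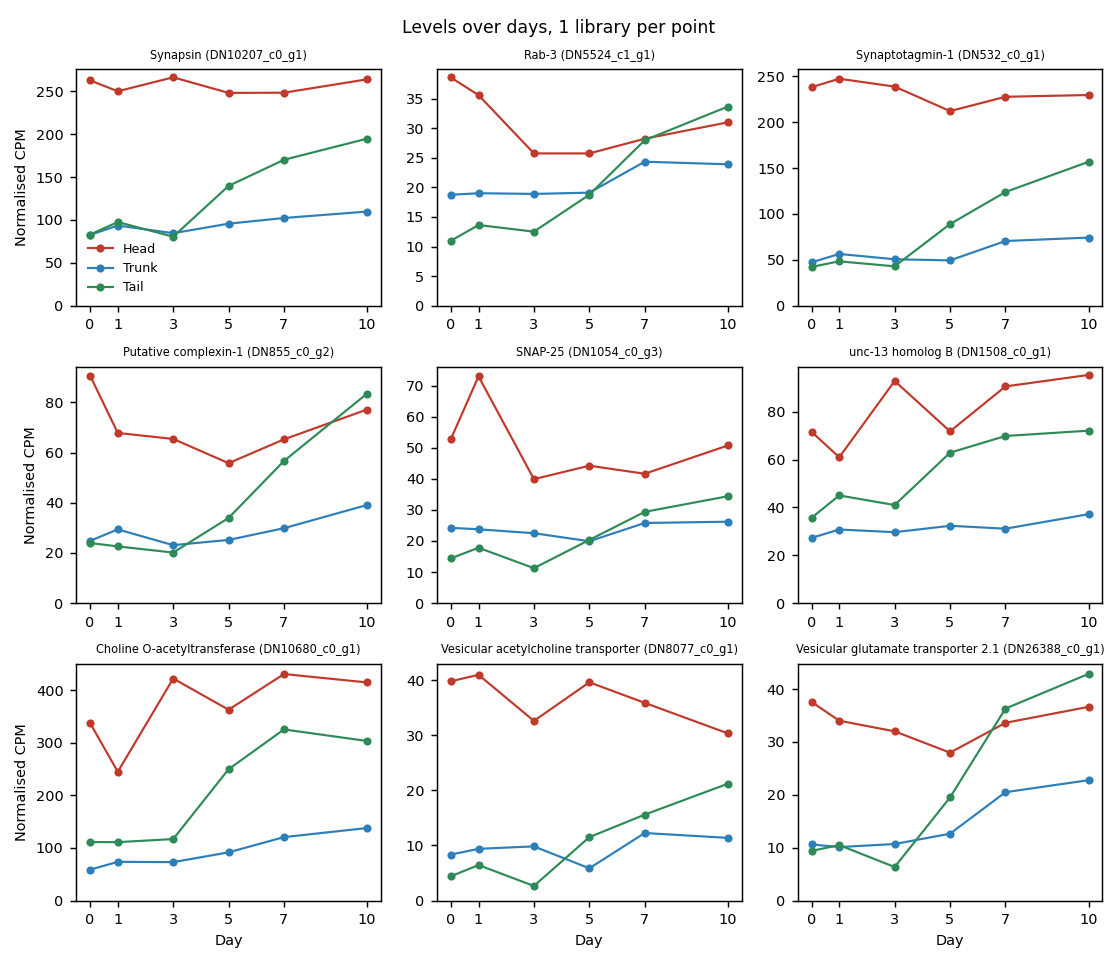
Normalised CPM over days 0 to 10 for 9 members, 1 point per library, in head (red), trunk (blue) and tail (green), each on its own axis from 0. All of the 9 but SNAP-25 (DN1054_c0_g3) are among the 14 members with a called tail slope, so they do not stand for the 42. The 28 members without such a call had a median of 0.953-fold in tail on day 10. In the 9 panels tail values stay low to day 3 and are higher from day 5, and on day 10 they are above the head value for Rab-3, complexin and Vesicular glutamate transporter 2.1, while Synaptotagmin-1 is at 157 in tail and 230 in head.

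**Figure D4:**
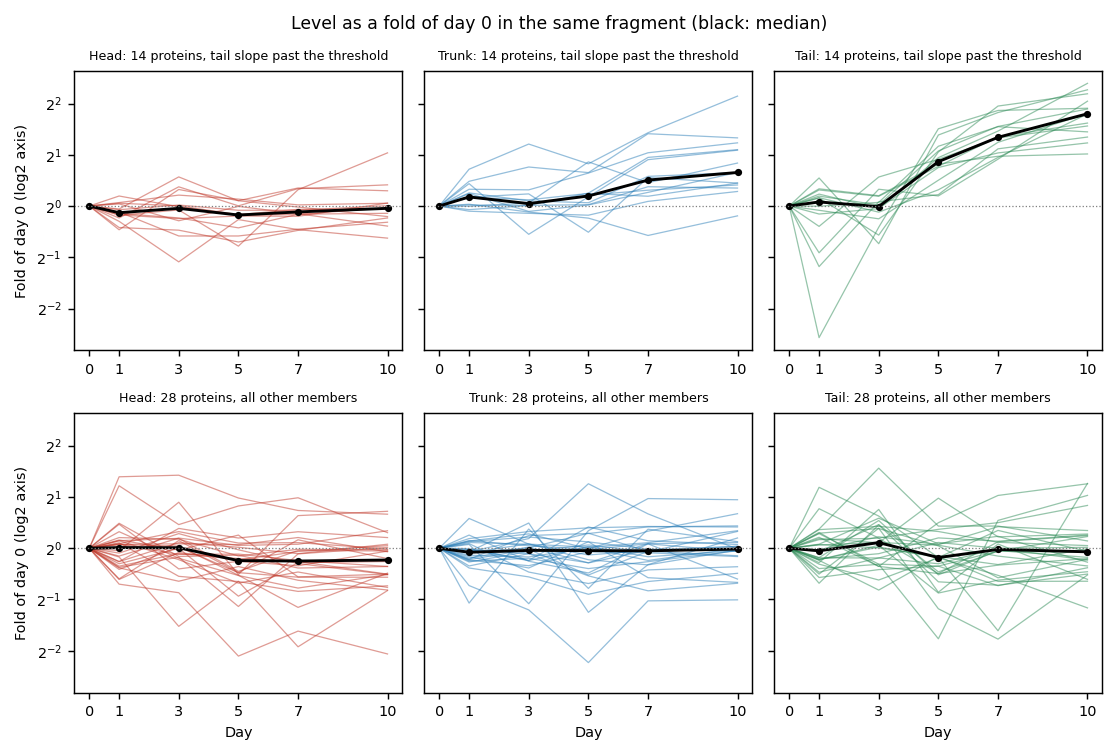
Level of each member as a fold of day 0 in the same fragment, on a log2 axis, for the 14 members with a called tail slope (top) and the other 28 (bottom); thin lines are members and the black line their median. The top right panel climbs to a median of 3.48 on day 10, while the same members reach 1.57 in trunk and 0.970 in head, and the median of the other 28 in tail is 0.953.

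Whether slopes differed between fragments was tested directly. The slope in tail exceeded that in head for 4 members, where 1.10% of all unigenes were called in that direction. At an unadjusted p under 0.05 there were 17 members, all in that direction, with no share of all unigenes counted at that threshold. The 4 were Rab-3 (0.59 ± 0.10, adjusted p = 0.00370), Synaptotagmin-1 DN532_c0_g1 (0.59 ± 0.12, adjusted p = 0.0131), SNAP-25 DN1054_c0_g1 (0.89 ± 0.21, adjusted p = 0.0459) and Synapsin (0.36 ± 0.09, adjusted p = 0.0459). The count was 0 without day 10, 1 without day 1 or day 7, 2 without day 5, 3 without day 0, of which only Synaptotagmin-1 was among the 4, and 8 without day 3, and DESeq2 called 10. Between 3 fragments at once, slopes differed for 2 members, Rab-3 (adjusted p = 0.00875) and Synaptotagmin-1 DN532_c0_g1 (adjusted p = 0.0255), with 1.50% of all unigenes called. Without day 1, 7 or 10 this count was 0, without day 5 only Rab-3 was called, without day 0 neither of the 2 was, without day 3 the count was 6, and DESeq2 called 10. Tail and trunk slopes differed for 0 members by edgeR and 0 by DESeq2, with 0.635% of all unigenes called and 10 members at an unadjusted p under 0.05.

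From the early to the late days the head against tail value was lower for 33 of 42 members and higher for 9, whether called or not. The same split was not counted over all unigenes, so it is a description and not a result about the members. With days 0, 1 and 3 alone, 21 members were higher in head than tail, where 14.5% of all unigenes were, and 6 lower, where 13.6% were, with a median log2 fold change of 0.47 beside 0.02 over all unigenes. With days 5, 7 and 10 alone, 16 were higher, against 10.4%, and 7 lower, against 14.0%, with a median of 0.07 beside 0.04. Among the named members, the late head against tail value was 0.11 for Rab-3, 0.25 for complexin and 0.05 for Vesicular glutamate transporter 2.1, all not called. Synaptotagmin-1 DN532_c0_g1 was at 2.46 early and 0.90 late and Synaptotagmin-9 at -1.65 and -1.26, called in both. Between early and late, the difference was tested only through the slopes. Head against tail and the tail slope share the tail libraries.

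A change over days in the model of fragment plus day was called for 4 of 42 members, where 4.59% of all unigenes were called. That test averages over the fragments and does not show that each of them changed alike. At an unadjusted p under 0.05 there were 14 members, with no share of all unigenes counted at that threshold. Synaptotagmin-1 DN7748_c0_g1, a unigene of another component than the one above, stood at 14.3, 15.9, 13.9, 17.0, 9.68 and 10.0 normalised CPM in head, 18.5, 16.5, 14.2, 20.2, 12.4 and 11.7 in trunk and 18.9, 15.2, 12.3, 16.6, 13.1 and 8.42 in tail (adjusted p = 0.0122). Day 5 was above day 3 and day 10 below day 0 in all 3 fragments. Synaptotagmin-like protein 5 (adjusted p = 0.0241), Synaptotagmin-like protein 4 (adjusted p = 0.0498) and Choline O-acetyltransferase (adjusted p = 0.0499) were the others. The count was 0 without day 5 and 2 without day 0, 1 or 10, and DESeq2 called 10.

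Unigenes of the same assembly component did not keep a fixed ratio. DN532_c0_g1 and DN532_c0_g2, both named Synaptotagmin-1, stood at a count ratio of 3.01 on day 0 and 9.42 on day 10 in tail, 8.08 and 11.1 in head, and 2.44 and 5.39 in trunk. The slope of the less abundant one in tail was 0.01 ± 0.09. The SNAP-25 pair ran the other way in tail, from 15.7 on day 0 to 7.16 on day 10. Such unigenes may be alleles, isoforms or pieces of a gene and may share reads, so a single unigene's value is uncertain.

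Partner proteins of the vesicle cycle were read from name lists. For these and the marker lists below, the shares of all unigenes are those given above. They were 18.9% higher and 19.1% lower in head against tail, and 17.8% and 21.7% in head against trunk. For called tail slopes they were 3.68% positive and 1.73% negative. Of 17 unigenes for priming, docking and SNARE recycling, 9 were higher in head than tail and 3 lower, with a median log2 fold change of 0.27. A called tail slope was held by 1 of the 17, or 5.88%, near the share of all unigenes. Active zone scaffolds were among the 9 higher in head. Regulating synaptic membrane exocytosis protein (DN54110_c0_g1), which links Rab-3 to the release site, differed by 1.42 ± 0.15 in head against tail, piccolo (DN810_c0_g1) by 1.02 ± 0.14 and the ELKS scaffold (DN5683_c0_g2) by 1.14 ± 0.17. The ELKS unigene stood at 8.65 normalised CPM in tail on day 0 and 31.9 on day 10, with a slope of 0.51 ± 0.07 (adjusted p = 8.13e-05). Calcium-dependent secretion activator 1 (DN8952_c0_g1), which primes dense core vesicles, was higher in head by 0.93 ± 0.09. Vesicle-associated membrane protein 3 (DN2072_c0_g1), a widely used vesicle SNARE, was lower in head at -0.81 ± 0.09, and so was Rab-27B (DN17221_c0_g1), the partner of the Synaptotagmin-like proteins, at -0.68 ± 0.09. With library totals neither was called, at -0.12 and 0.02.

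Of 24 unigenes for vesicle retrieval, 7 were higher and 7 lower in head than tail, and with library totals 19 and 1. Dynamin-1 (DN2465_c0_g1), the GTPase that cuts vesicles off the membrane, was higher by 1.10 ± 0.12, and Endophilin-A2 (DN7032_c0_g1), which bends the membrane, was lower at -1.24 ± 0.10. The only called tail slope of the list was that of a clathrin assembly protein, Phosphatidylinositol-binding clathrin assembly protein (DN3571_c0_g1), at 0.39 ± 0.06. That is 4.17% of the list, near the 3.68% of all unigenes with a called positive slope there. The proton pump that powers vesicle loading, and also acidifies gut and lysosomal compartments, had 11 unigenes, of which 9 were higher in head than tail and 8 lower in head than trunk. The second split depended on scaling, since its median of -0.26 became 0.05 with library totals, and none of the 11 had a called tail slope.

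Transmitter synthesis, uptake and breakdown held 23 unigenes, of which 15 were higher in head than tail and 2 lower, with a median of 1.01, and 4 had a called tail slope. The cholinergic partners stood with the cholinergic members. High-affinity choline transporter 1 (DN2492_c1_g1), which brings choline back for synthesis, was higher in head by 1.22 ± 0.19 and had a tail slope of 0.45 ± 0.10 (adjusted p = 0.00828), from 12.7 normalised CPM on day 0 to 35.2 on day 10. Acetylcholinesterase (DN3397_c0_g1), which breaks acetylcholine down, was higher by 2.02 ± 0.30 and had a tail slope of 0.47 ± 0.13 (adjusted p = 0.0460), from 9.39 to 29. Dopamine beta-hydroxylase (DN13038_c0_g1) and Tryptophan 5-hydroxylase 1 (DN6504_c1_g1), enzymes of amine synthesis, were higher in head by 2.21 ± 0.22 and 1.51 ± 0.25 and had no called tail slope. Glutamate decarboxylase 1 (DN9211_c0_g1), which makes GABA, was higher in trunk than in head (-1.34 ± 0.26 in head against trunk) and than in tail (1.88 ± 0.27 in trunk against tail), beside the same directions in the inhibitory transporter DN9981_c0_g1. Of 13 unigenes named after voltage-dependent calcium channel subunits, 6 were higher and 3 lower in head than tail and 5 had a called tail slope, among them a T-type channel (DN10452_c0_g1) at 0.45 ± 0.08. The list does not separate channels that admit the calcium for release from other classes and subunits.

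Marker lists were also read over the days in tail. The neuron list had 28 of 123 unigenes with a called positive tail slope and none negative, and its summed level went from 1516 normalised CPM in tail on day 0 to 1842 on day 10, 1.21-fold, while the members' sum went from 994 to 1620, 1.63-fold. Abundant unigenes weigh most in such sums, as Choline O-acetyltransferase does among the members, at 111 and 303 in tail on those days. The median tail slope had the other order, 0.17 in the neuron list and 0.05 in the members. The sums therefore do not show that release proteins rose more than other neuron unigenes. In head the sums of the neuron list and the members were 0.975-fold and 1.02-fold of day 0 on day 10, and in trunk 1.07-fold and 1.28-fold. Neuroendocrine convertase 2 (DN2793_c0_g1), a peptide-processing enzyme used as a neuron marker in planarians, went from 61.6 to 132 in tail with a slope of 0.29 ± 0.07. ELAV-like protein 3 (DN5332_c0_g1) had no called slope there (0.06 ± 0.13). Of 8 photoreceptor unigenes, 4 were higher in head than tail, 8 with library totals, and 2 had a called tail slope, one of them Rhodopsin (DN127811_c0_g1), at 0 counts in tail on day 0 and 10.0 normalised CPM on day 10, with a mean of 91.9 in head.

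Of 15 muscle unigenes 10 were lower in head than tail and 1 higher, and with library totals 7 and 5, while none rose in tail and 1 fell. Their summed level ran from 6226 to 10199 in head, 11070 to 15847 in trunk and 12436 to 18640 in tail, where day 0 was the highest and day 10 the lowest. Of 60 ciliated cell unigenes 32 were lower in head than tail and 0 higher, which turned to 4 and 28 with library totals (median log2 fold change -0.34 and 0.36), and none had a called tail slope, while the tail sum went from 2590 to 4015. Of 11 intestine unigenes 8 were higher in head than tail, 10 with library totals, 1 rose and 3 fell in tail, and sums ran from 1324 to 2467 in head, 2455 to 3726 in trunk and 689 to 1299 in tail. Of 14 stem cell unigenes 0 were called in head against tail and 7 were lower in head than trunk, while with library totals 8 were higher in head than tail and 0 lower than in trunk. Their sums ran from 441 to 789 in head, 608 to 1027 in trunk and 464 to 698 in tail. At least 1 library was at 0 for 1 muscle, 6 ciliated cell and 2 photoreceptor unigenes and for no intestine or stem cell unigene. The part of these cells in the members' differences was not tested.

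**Figure D5:**
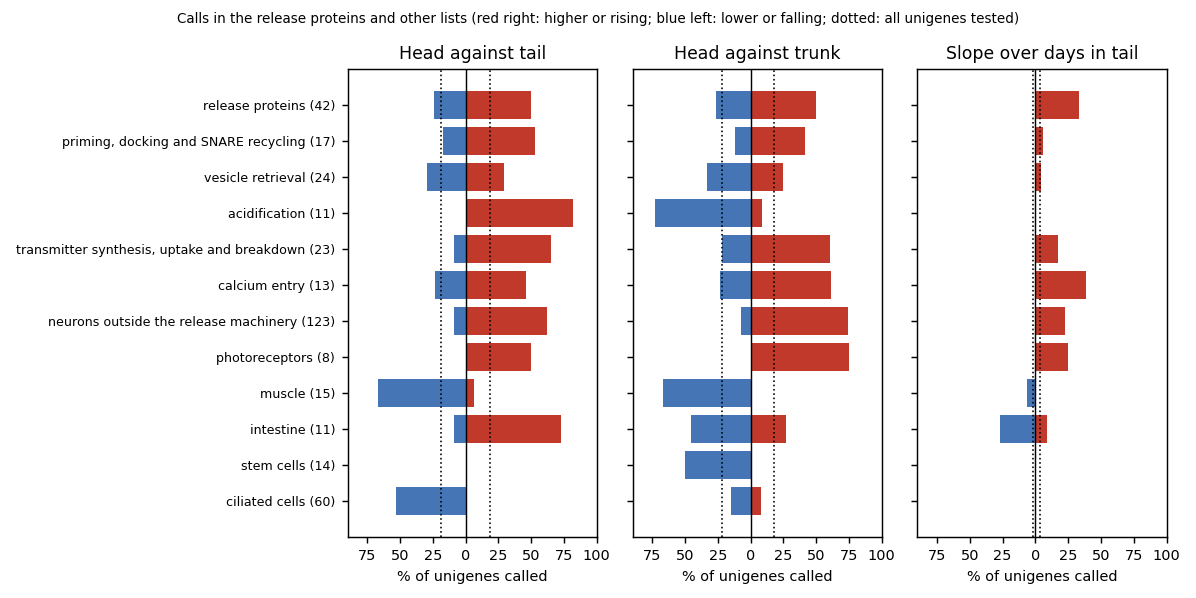
Share of each list called higher (red, right) or lower (blue, left) in head against tail and head against trunk, and called rising or falling over days in tail, with list sizes in brackets and the share of all tested unigenes as dotted lines. In tail slopes, 14 of 42 release proteins, 5 of 13 calcium channel and 28 of 123 neuron unigenes lie to the right, against 0 of 11 acidification unigenes.

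The 2 unigenes with a matching name that missed the minimum level were a Synaptic vesicle 2-related protein (DN15777_c0_g2), at most 0.903 CPM in any library, and Synaptotagmin-5 (DN9340_c0_g2), at 1.01 CPM in its highest library and above 1 CPM in no other. They were not tested.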

How the data were processed

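Head, trunk and tail libraries of 6 days, 1 each, were analysed from the deposited table of whole-number counts per assembled unigene. Per the submitters' processing notes, FastQC, fastp 0.20.0, Bowtie2 and RSEM were used; parameters are not given in the sources used here. The 18 columns of log CPM that the authors also deposited were not used.

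Library totals were 17547716 to 21229980 counts. Of 267235 unigenes, 23616 with 1 CPM in at least 3 libraries were tested with edgeR 4.0.16 (quasi-likelihood, TMM, R 4.3.3), with Benjamini-Hochberg adjustment over all of them and a threshold of 0.05. Fragments were compared in a model of fragment plus day (10 residual degrees of freedom), and slopes on log2(day + 1) were fitted per fragment (12 degrees). Standard errors are the log2 value divided by the square root of the F statistic. Floors of 3 counts cover counting error only, and reads without molecular identifiers are not independent molecules.

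Alternatives were DESeq2 1.42.0, other scalings, no filter, each day left out, the head day 1 library left out, early or late days alone, no day term, and day on a linear scale. On simulated data for head against tail, 99 of 100 unigenes changed by 1 on the log2 scale and 100 of 100 changed by 2 were found, with 8 false calls among 23616. For the tail slope the numbers were 35, 97 and 2. The changed unigenes were drawn above a minimum mean level that some members do not reach. Simulated counts held no other differences between fragments or days, and their spread depended on level alone. They therefore do not give the recovery or the false calls in the real libraries.

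Members and lists were chosen with earlier results of these data known, and list terms that matched unrelated names (Dystonin, mitochondrial dynamin-like, CUGBP Elav-like and VAMP-associated proteins) were removed by name. The members given in most detail are, per role, the most abundant and the one that differed most between head and tail, then the 5 highest and 5 lowest in that comparison, the steepest tail slopes and all called slope differences; others named are part of the account of every member. Partner unigenes named were picked after their values were seen. No sequences are printed.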

Additional observations from a re-analysis of the deposited data

Results flagged for a closer look

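For 4 members the slope over days differed between tail and head by a test of the difference itself (edgeR), where 1.10% of all unigenes were called in that direction. For Rab-3 (DN5524_c1_g1) the slope in tail exceeded that in head by 0.592 on the log2 scale per doubling of (day + 1), with tail at 11 normalised CPM on day 0 and 33.7 on day 10 and head at 38.6 and 31.0. For Synaptotagmin-1 (DN532_c0_g1) the difference was 0.593, with tail at 42.2 and 157 and head at 238 and 230. For SNAP-25 (DN1054_c0_g1) it was 0.891, with tail at 0.914 and 4.80 and head at 7.51 and 4.86. For Synapsin (DN10207_c0_g1) it was 0.362, with tail at 83.0 and 195 and head at 263 and 264. All were lost without day 10, Rab-3 also without day 0, Synaptotagmin-1 also without day 1 or 7, and SNAP-25 and Synapsin also without day 0, 1, 5 or 7.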

How the results depend on the processing

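The labels give no replicate numbers, and the fragments are paired by their shared day. The model of fragment plus day holds that day as a block, while the model of slopes does not. With fragment alone and no day term, 19 members were higher and 9 lower in head than tail, 21 and 11 in head than trunk, and 6 and 8 in trunk than tail. With library totals, the count lower in head than tail was 2 in place of 10, lower in head than trunk 7 in place of 11, higher in trunk than tail 14 in place of 6, of any day 2 in place of 4 and of tail minus head slopes 7 in place of 4. The medians with library totals were 1.09 (head against tail), 0.55 (head against trunk) and 0.26 (trunk against tail), and Synaptotagmin-like protein 5, Extended synaptotagmin-2 and Syntaxin-5 turned to 0.029, 0.60 and 0.44 in head against tail; by construction this scaling shifts all unigenes. With totals without the most abundant unigene, the counts lower in head were 6 (tail) and 7 (trunk) and the medians 0.64 and 0.61. Without a filter, the counts were 6 (lower in head than tail), 16 (any day), 10 (slopes differ), 10 (tail minus head) and 2 (trunk slope). DESeq2 gave 10 (any day), 10 (slopes differ), 10 (tail minus head), 2 (head slope) and 2 (trunk slope). Day on a linear scale gave 10 (slopes differ) and 10 (tail minus head). Without the head day 1 library, the counts were 2 (any day), 1 (slopes differ) and 2 (tail minus head). With days 0, 1 and 3 alone, the counts lower in head were 6 (tail) and 6 (trunk) and the trunk against tail median 0.077; with days 5, 7 and 10 alone the head against tail median was 0.068. With each day left out in turn, the counts ran from 0 to 3 (any day), 0 to 6 (slopes differ), 5 to 15 (tail slope) and 0 to 8 (tail minus head). Among these alternatives, the share of all unigenes called is given above only for head against tail with early or late days alone. The other counts therefore have no such share beside them. Other than scaling, the cause was not tested. Depth limits members near 1 CPM, where 3 counts equal up to 0.249 normalised CPM.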
